A study of Hypsibius dujardini with 126 samples.

Results

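Of 12746 transcript models counted in Hypsibius dujardini, a tardigrade, 213 were near zero at the start of development and first reached a mean of 50 CPM at 70 to 79 h. CPM is a transcript's count divided by all transcript counts of that embryo, scaled to a total of 1000000. They were chosen by their window means. The mean at 0-9 h had to be under 1 CPM, and the first 10 h window with a mean of 50 CPM or more had to be 70-79 h. The measured levels up to 79 h therefore chose the members and are given as description without a test, whereas the levels at 80-99 h and the embryos left out for low depth played no part in the choice. The series holds 126 embryos, each sequenced on its own by CEL-Seq, a method that barcodes the polyadenylated RNA of a sample, amplifies it by transcription in vitro and counts reads near the 3′ ends. Per the labels' protocols, every embryo was isolated, watched to the 2-cell stage, kept at 20 °C and frozen at its hour. No treatment, strain, genotype or clutch is part of the labels, which differ between embryos only in label time and embryo number.

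The transcriptome of an early animal embryo is largely supplied by the mother, and transcription from the embryo's own genome takes over step by step. Transcripts that are absent early and appear late are usually products of that zygotic transcription, often needed by differentiating cells. Late in tardigrade development the muscles, nervous system, gut, claws and the stylets of the feeding apparatus take form before the juvenile hatches. The word zygotic is only a name here, since the counts do not separate maternal from embryonic RNA. In a whole embryo, fewer cells of a type and less RNA per cell cannot be told apart.

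The transcript IDs carry no gene name, function or sequence in the files, so the members are described by their time courses, and no marker could be used to check a tissue. Counts near 3′ ends do not grow with transcript length, and levels are given as CPM without a length correction. Embryos held between 2347 and 4972036 transcript counts, and the median was 634044. A depth minimum of 10% of the median kept 101 of 126. The kept embryos numbered 17 (0-9 h), 13 (10-19 h), 7 (20-29 h), 9 (30-39 h), 10 (40-49 h), 10 (50-59 h), 4 (60-69 h), 9 (70-79 h), 8 (80-89 h) and 14 (90-99 h). No kept embryo had a label hour of 19, 20, 23, 25, 37, 60, 61, 65 to 68, 70, 82, 83 or 86. The window means hold no embryo of these hours, and any single level given for them is of an embryo under the depth minimum. Embryo numbers run through the course in stretches: embryos 1-25 range up to 18 h and again over 80 to 98 h, those numbered 26-78 over 47 to 99 h, and those numbered 79-126 reach 46 h. All embryos of the 70-79 h window belong to embryos 26-78, and 80-99 h is the only period that 2 stretches share late in development.

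3 kept embryos of 76 to 80 h stood apart and are given by number where results rest on them. Embryo 55 (76 h) had 752928 counts but held only 0.0649% of them on the members. Embryo 58 (79 h) had 76974 counts, of which 33.2% fell on a single transcript that is not a member, and a single count there equals 13.0 CPM. Embryo 17 (80 h) had 90771 counts with 51.3% on a single transcript. Embryo 76 (97 h) had 131746 counts with 27.4% on a single transcript, and embryo 48 (69 h) held more on the members than the other kept embryos of 60-69 h. Whether these embryos followed their label times was not tested.

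The members passed their earlier range at 69 h and were most abundant at 77 and 78 h, where they took 14.8% and 16.2% of all transcript counts. At 50-59 h they held 0.101% to 0.217% of the counts of an embryo, and at 62, 63 and 64 h they held 0.156%, 0.163% and 0.209%. At 69 h the share was 0.517%. The next embryos held 1.31% (71 h), 1.77% (72 h), 3.11% (73 h), 4.75% (74 h) and 2.79% (75 h). Past the low embryo of 76 h, it was 14.8% at 77 h, then 16.2% at 78 h, and 3.94% in embryo 58 at 79 h. From 62 h to 74 h each kept embryo was thus above the one before it, and the largest gap lay before the 77 h embryo.

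**Figure D1:**
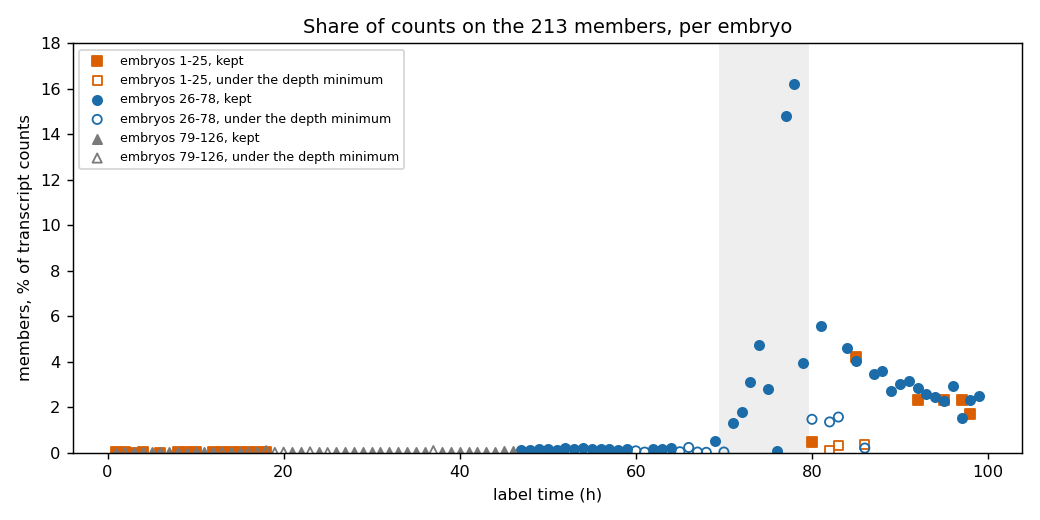
Share of each embryo's transcript counts on the 213 members (y axis, percent) against label time (x axis, hours); each point is 1 embryo, filled when kept and open when under the depth minimum, with shape and colour for the stretch of embryo numbers and the grey band for 70-79 h. The 2 highest points are 14.8% at 77 h and 16.2% at 78 h, and the 14 kept embryos of 90-99 h lie between 1.52% and 3.14%.

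The spike-in RNAs of each sample give a second scale, which holds only within a stretch of embryo numbers, since embryos 79-126 hold far fewer spike-in counts. In embryos 26-78, member counts per 100 spike-in counts were 0.687 to 0.925 at 62-64 h, 3.37 at 69 h and 7.63 to 25.4 at 71-75 h. They were 102.6 at 77 h and 122.7 at 78 h, and 34.7 at 81 h. Embryo 58 had 1.14 on this scale, where its share of transcript counts was 3.94%. Within this stretch both scales place the highest embryos at 77 and 78 h, and they differ for the shallow embryo of 79 h.

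Single members ranged widely in level and in how many embryos carried them. The median of the 213 window means was 0.105 CPM at 0-9 h, 0.449 CPM at 50-59 h and 3.26 CPM at 60-69 h. At 70-79 h it was 97.3 CPM, with single means between 50.2 and 4019 CPM. A small upper group stood out: 12 members averaged 1000 CPM or more, and the 10 most abundant held 38.0% of the summed level. Of the 213, 61 had no count in any of the 17 kept embryos of 0-9 h. Counts behind a member at 70-79 h had a median of 893 reads over the 9 embryos, and the fewest were 35.

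Many window means rested on few embryos. Counts were found in 5 or more of the 9 embryos for 149 members, and in all 9 for 1 member. For 93 members, more than 50% of the summed CPM came from a single embryo, and for 6 it came from a single embryo entirely. Without their highest embryo, 116 of 213 kept a mean of 50 CPM or more. Near the threshold, 17 members averaged 50 to 55 CPM, the lowest at 50.2 CPM, and 22 transcripts that otherwise met the rule averaged 45 to 50 CPM, the highest at 49.9 CPM. At the early limit, 17 members had a 0-9 h mean of 0.8 to 1 CPM and 18 transcripts just outside had 1 to 1.2 CPM. An earlier window mean of 40 to 50 CPM was seen for 23 members, so their first hour on is a matter of a small margin.

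The 213 members did not peak together, and they are described in 3 groups by the hour of their highest embryo within 70-79 h. This division was made after the values were seen. The highest embryo was that of 71, 72, 73, 74 or 75 h for 7, 15, 24, 23 and 4 members, 73 in all. It was that of 77 h for 36 and that of 78 h for 60, which makes 96. It was embryo 58 at 79 h for 44. No member was highest in embryo 55 at 76 h. With embryo 55 set aside, the highest and the next highest embryo were neighbours in time for 39 of 73, 74 of 96 and 14 of 44 members of the 3 groups. The 79 h embryo is the last of the window and has no later neighbour in it, so the groups cannot be compared by these counts. The same values chose the members and made the groups, and no expected share was worked out, so the counts are description only.

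**Figure D2:**
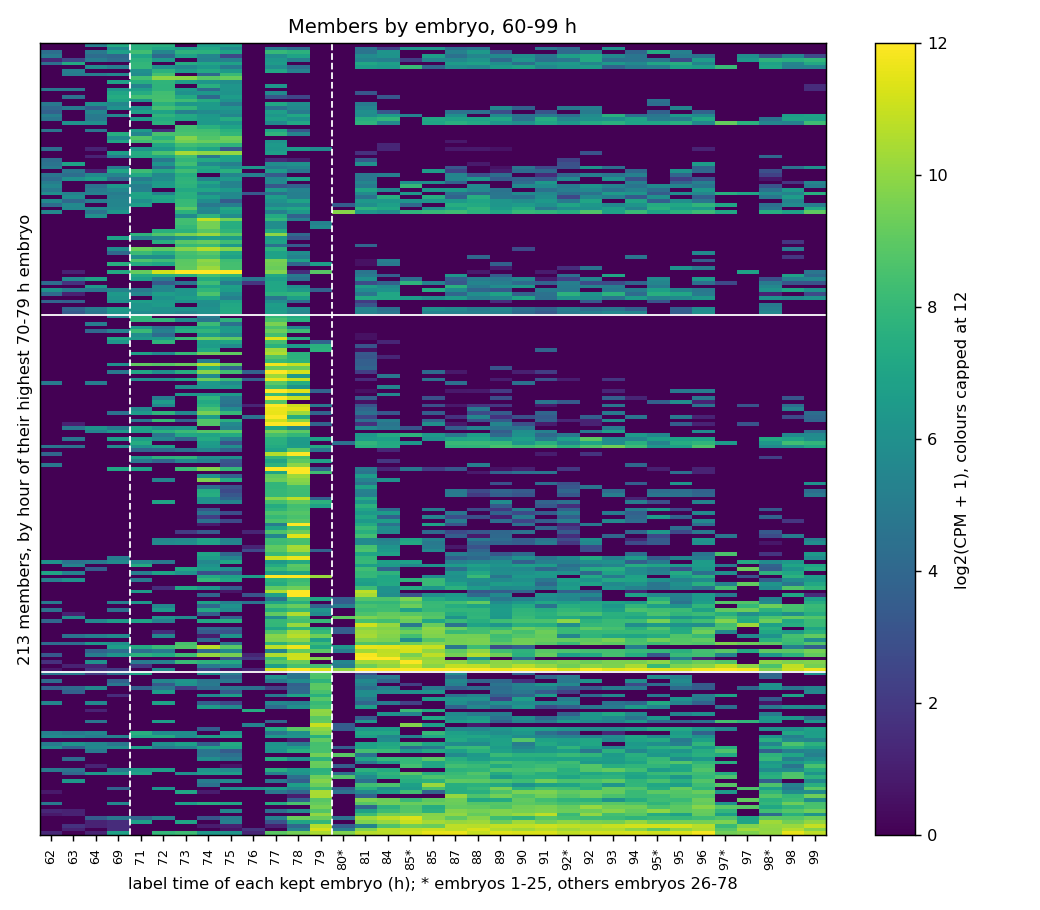
Level of each of the 213 members (rows, ordered by the hour of the highest 70-79 h embryo) in the kept embryos from 60 h on (columns, by label time), with colour for log2(CPM + 1), where levels above 12 share the top colour. The blocks of 73, 96 and 44 members that are highest at 71-75 h, 77-78 h and 79 h follow each other, and the column of embryo 55 at 76 h is nearly empty.

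The early group of 73 took a small share over many hours. It held 0.331% (69 h), 0.845% (71 h), 1.27% (72 h), 2.50% (73 h), 2.95% (74 h) and 1.90% (75 h) of the counts. Afterwards it held 0.928% (77 h), 0.282% (78 h) and 0.239% (81 h). Of the 40 members at 50 CPM or more in the 69 h embryo, 25 belong to this group. In the later windows its members were mostly low: 57 of 73 averaged under 50 CPM in both, 8 averaged 50 CPM or more in both, and 22 had no count in any embryo of 90-99 h. Only 8 of the 73 had more than 50% of their 70-79 h level in a single embryo, so most were carried by several embryos.

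HD_v1_tr_06138, the most abundant of the members that were low in both later windows, belongs to the early group. Its 70-79 h mean of 3018 CPM was the highest of that group, where the median was 79.2 CPM. It therefore does not stand for the other members of the group. It was picked after its values were seen. It had counts in 1 of the 3 kept embryos of 62-64 h and stood at 156 CPM at 69 h. At 71, 72, 73, 74 and 75 h it stood at 576, 2306, 7149, 9159 and 6645 CPM. At 76 h it was 0, at 77 h 855, at 78 h 1.97 and in embryo 58 at 79 h 468 CPM. Every embryo from 71 to 75 h was thus above every kept embryo from 78 h on. The mean was 10.5 ± 32.6 CPM at 90-99 h (SD, n = 14, counts in 3 embryos) and 3.15 ± 8.57 CPM at 80-89 h (SD, n = 8, counts in 2 embryos).

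The middle group of 96 made up the burst at 77 and 78 h. It held 13.7% of counts at 77 h and 15.6% at 78 h, against 1.68% at 74 h. The 81 h embryo held 4.46% and the 84 h embryo 3.20%. More than 50% of the 70-79 h level came from a single embryo for 54 of the 96. Later, 27 of 96 averaged 50 CPM or more in both windows and 60 in neither, and 21 had no count at 90-99 h. Its members include 11 of the 12 with means of 1000 CPM or more.

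HD_v1_tr_06111 had the highest mean of all members at 70-79 h, 4019 ± 8910 CPM (SD, n = 9). It was also picked after its values were seen. It had no count in any kept embryo of 60-73 h, and measured 150, 112 and 102 CPM at 74, 75 and 76 h. At 77 h it stood at 7869 CPM, at 78 h at 26779.8 CPM and in embryo 58 at 1156 CPM. The 78 h embryo alone thus gave most of the mean. Later levels were far lower, 75.5 ± 71.8 CPM at 90-99 h (SD, n = 14) and 101 ± 110 CPM at 80-89 h (SD, n = 8). HD_v1_tr_06111 was at 102 CPM in embryo 55, which held 4 members at 50 CPM or more.

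The late group of 44 was highest in embryo 58 and mostly stayed on. It held 2.94% of the counts of that embryo, against 0.365% at 78 h, and between 0.870% and 1.72% in the kept embryos of 81 to 96 h. Lower values were 0.190% in embryo 17 at 80 h, and 0.612% in embryo 24 and 0.484% in embryo 76, both of 97 h. In both later windows 27 of 44 averaged 50 CPM or more, and 12 of 44 in neither. Its median member mean was 118 CPM at 90-99 h and 136 CPM at 80-89 h, set against 78.1 CPM at 70-79 h. Because embryo 58 is shallow, the place of this group in the 70-79 h window rests on that embryo: 11 of the 44 still met the rule without it.

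**Figure D3:**
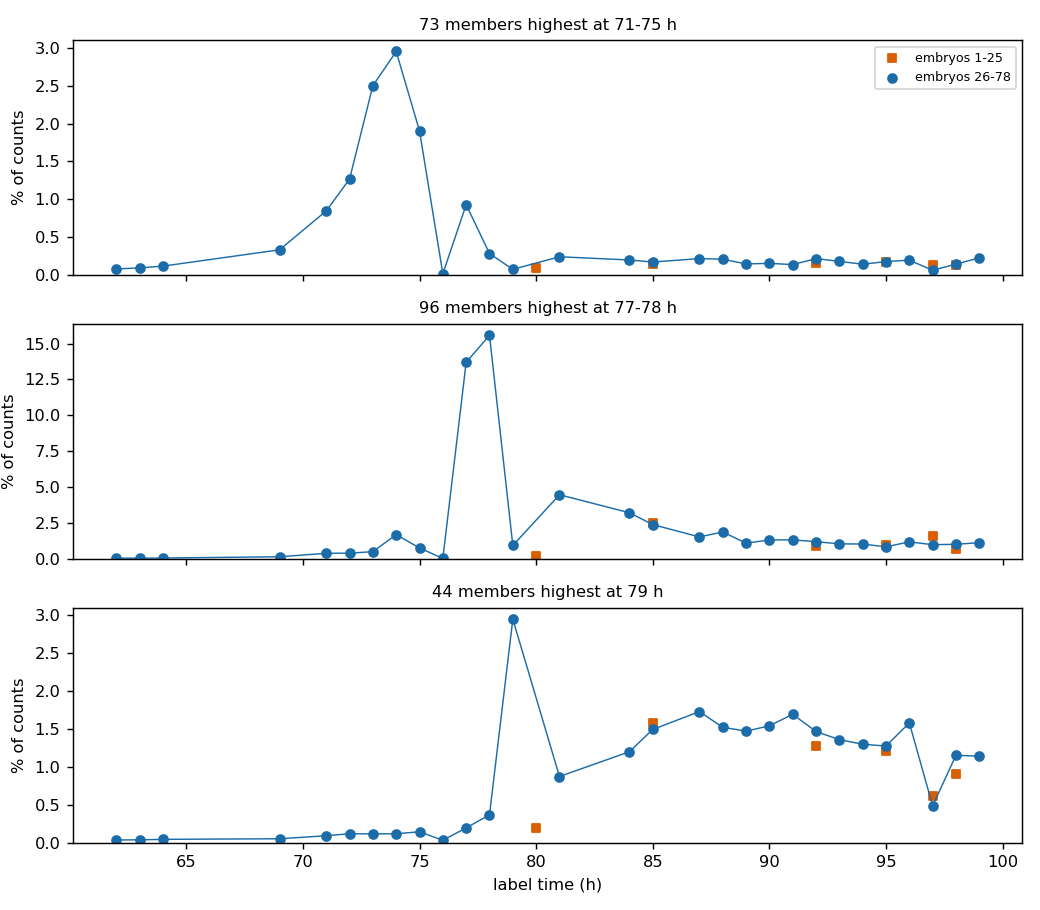
Summed share of transcript counts (y axis, percent) against label time (x axis, hours) for the 73, 96 and 44 members that are highest at 71-75 h, 77-78 h and 79 h; each point is 1 kept embryo, with squares for embryos 1-25 and circles joined by a line for embryos 26-78, and the y scales differ. The early group reaches 2.95% at 74 h, the middle group 15.6% at 78 h, and the late group 2.94% in embryo 58 at 79 h.

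After 79 h the members are described by whether their later means reached 50 CPM. This is measured in embryos the rule did not use. A mean of 50 CPM or more in both later windows was found for 62 members (29.1%), where the background over all 12746 transcripts was 16.5%. At 80-89 h only it was found for 16, and at 90-99 h only for 6. For 129 members (60.6%) both later means were under 50 CPM, as for 75.3% of all transcripts. The highest of their means was 46.6 CPM at 80-89 h and 42.5 CPM at 90-99 h, so not all of them were absent. No count at all was found for 45 members in the 14 embryos of 90-99 h and for 30 in the 8 embryos of 80-89 h. The 80-89 h mean was above the 70-79 h mean for 57 members and under 25% of it for 102.

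Seen by window, the highest mean fell at 70-79 h for 150 members, at 80-89 h for 40 and at 90-99 h for 23. Over the 213 members the median was 12.2 CPM at 90-99 h and 26.4 CPM at 80-89 h, set against 97.3 CPM at 70-79 h. For the 62 that stayed on, the median was 215 CPM at 90-99 h and 235 CPM at 80-89 h, where it had been 92.8 CPM at 70-79 h. These 62 were picked by their later means, so their later medians are a description. The member with the highest later level averaged 3492 ± 1630 CPM at 90-99 h (SD, n = 14) and 5570 ± 2496 CPM at 80-89 h (SD, n = 8), and had counts in all 22 of these embryos.

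Transcripts first on in other windows, chosen by the same rule, give a scale for these shares. Staying at 50 CPM or more in both later windows was found for 29.1% of the 213 members, 17.4% of 219 transcripts first on at 60-69 h, 29.0% of 293 first on at 50-59 h and 23.5% of 196 first on at 40-49 h. Both later means were under 50 CPM for 60.6%, 74.4%, 58.7% and 67.3% of the same sets. These shares were not tested against each other, and the members' shares are closest to those of the 50-59 h set. A single embryo gave more than 50% of the onset level for 43.7% of the members, and for 51.1%, 6.14% and 18.4% of the sets of 60-69, 50-59 and 40-49 h. Neighbouring ID numbers were found for 12 of 213 members (5.63%) and for 19 of 219 transcripts first on at 60-69 h (8.68%). In the other sets the share was 7.14% (20-29 h), 0% (30-39 h), 9.69% (40-49 h), 10.2% (50-59 h), 13.9% (80-89 h) and 1.90% (90-99 h). The sets differ in size and no expected share was worked out, so these shares are description only.

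The step within the late embryos, 90-99 h over 80-89 h, asks which members were lower again. Of 213 members 210 could be tested, and 24 were lower at 90-99 h (11.4% of those tested), where the background over all 11802 transcripts tested was 3.96%. Several sets first on in other windows were also above this background, with 6.91% (60-69 h), 4.44% (50-59 h), 7.65% (40-49 h) and 14.3% (2 of 14, 30-39 h) lower. HD_v1_tr_07731 was the only member higher at 90-99 h (0.476%), where the background was 3.52%. The test was edgeR's quasi-likelihood test over the 101 kept embryos, with Benjamini-Hochberg adjusted p-values under 0.05. Its filter and its estimate of the spread use all 10 windows. The values up to 79 h that chose the members therefore enter both, though the step itself compares later embryos only. Without adjustment 36 members were lower and 8 higher, 44 in all or 21.0% of those tested, near the 17.6% of all transcripts. The fitted log2 change was negative for 134 members and positive for 56, with a median of -0.40, where the median over all transcripts tested was 0.

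Most of the 24 belonged to the burst of 77 and 78 h and were detected in few late embryos. By group, 18 were among the 96 highest at 77-78 h, 4 among the 73 highest at 71-75 h and 2 among the 44 highest at 79 h. No count at 90-99 h was found for 14 of the 24. At 80-89 h, 10 of the 24 had counts in a single embryo, 9 had counts in at least 50% of the embryos, and 8 averaged 50 CPM or more. The highest 80-89 h level was in embryo 60 (81 h) for 15, embryo 63 (84 h) for 6, embryo 20 (85 h) for 2 and embryo 64 (85 h) for 1. All these embryos are of 81 to 85 h, the early side of the 80-89 h window. Without embryo 60 the number lower was 13 (6.28%, background 3.02%). In a fit of the 22 embryos of 80-99 h alone it was 1 of 106 members tested (0.943%, background 0.101%). With DESeq2 it was 10 (4.76%, background 4.21%) and with no embryo left out for depth 7 (5.19%, background 4.49%), both near the background.

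HD_v1_tr_07015 fell at 90-99 h and follows the burst by some hours. It had no count at 71-74 h, and stood at 7.35 CPM (75 h), 289 CPM (77 h), 2277 CPM (78 h) and 805 CPM (embryo 58). At 80 h it was 0 in embryo 17. At 81 h it stood at 8716 CPM, at 84 h at 4027 CPM, and at 85 h at 1230 CPM in embryo 20 and 1062 CPM in embryo 64. The shallow embryos between these hours did not follow this course. It was 0 in embryos 59 (80 h), 61 (82 h), 19 and 62 (both 83 h), and embryo 18 (82 h) had 1 count. The shallow embryos 21 and 65 of 86 h had none. At 87 and 89 h it was 0, at 88 h 61.5 CPM and at 90 h 16.3 CPM. It averaged 3.60 ± 9.48 CPM at 90-99 h (n = 14, counts in 3) and 1887 ± 3079 CPM at 80-89 h (n = 8, counts in 5), as mean ± SD. The highest embryo of 90-99 h, at 32.9 CPM, was below the 4 kept embryos of 81 to 85 h, though the windows overlap through 3 embryos of 80-89 h at 0. Over the pooled counts it was 925-fold lower at 90-99 h, but embryo 60 held 18976 of the 22514 counts of 80-89 h, and without it the fold was 199. Over all kept embryos, edgeR gave a log2 change of -9.11 (SE 1.52, adjusted p = 9.913e-05). It passed the threshold in 19 of 20 alternatives that gave a p, and DESeq2 gave an adjusted p of 0.110 in a range of 3.858e-06 to 0.110.

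HD_v1_tr_07724 also fell, with counts in fewer embryos. Among the kept embryos of 70-79 h it was at 2014 CPM in embryo 58, at 38.5 CPM in embryo 55 and at 0 in the other 7. At 80-89 h it was at 11.0 CPM in embryo 17, 852 CPM in embryo 20, 108 CPM in embryo 64 and 0.820 CPM at 88 h, and at 0 in the other 4. None of the 14 embryos of 90-99 h had a count, set against 122 ± 298 CPM at 80-89 h (mean ± SD, n = 8). Against a floor of 3 counts over the 90-99 h group, 0.266 CPM, the pooled level was at least 118-fold lower at 90-99 h. Embryo 20 held 221 of the 254 counts of 80-89 h, and without it the bound was 15.9-fold and the adjusted p 0.0478. EdgeR gave an adjusted p of 0.00667 with all kept embryos, and 18 of 19 alternatives with a p passed the threshold. HD_v1_tr_07724 was not tested in the fits of 80-99 h embryos alone, of linear time and with no embryo left out for depth. Within embryos 26-78 alone its adjusted p was 0.227, in a range of 0.00282 to 0.227. Earlier, the kept embryos of 52 h and 54 h held this transcript at 202 and 75.1 CPM, and the shallow embryo of 66 h held it at 1493 CPM, so it was not first seen at 70-79 h.

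HD_v1_tr_07731 rose at 90-99 h on few counts, 93 at 90-99 h and 1 at 80-89 h, with counts in 5 of 14 and 1 of 8 embryos. It was named after its values were seen. At 90-99 h the highest embryo was at 60.4 CPM, and at 80-89 h the highest was at 0.459 CPM. The pooled ratio was 66.6, with an exact 95% interval of 11.7 to 2657 that covers counting error only. EdgeR gave a log2 change of 5.11 (SE 1.68, adjusted p = 0.0454), and 4 of 19 alternatives with a p passed the threshold, in a range of 0.0403 to 0.442. The fits of 80-99 h embryos alone, of linear time and with no embryo left out for depth did not test HD_v1_tr_07731. At 70-79 h this transcript had been at 457 CPM at 77 h and 152 CPM at 74 h, above all later embryos.

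**Figure D4:**
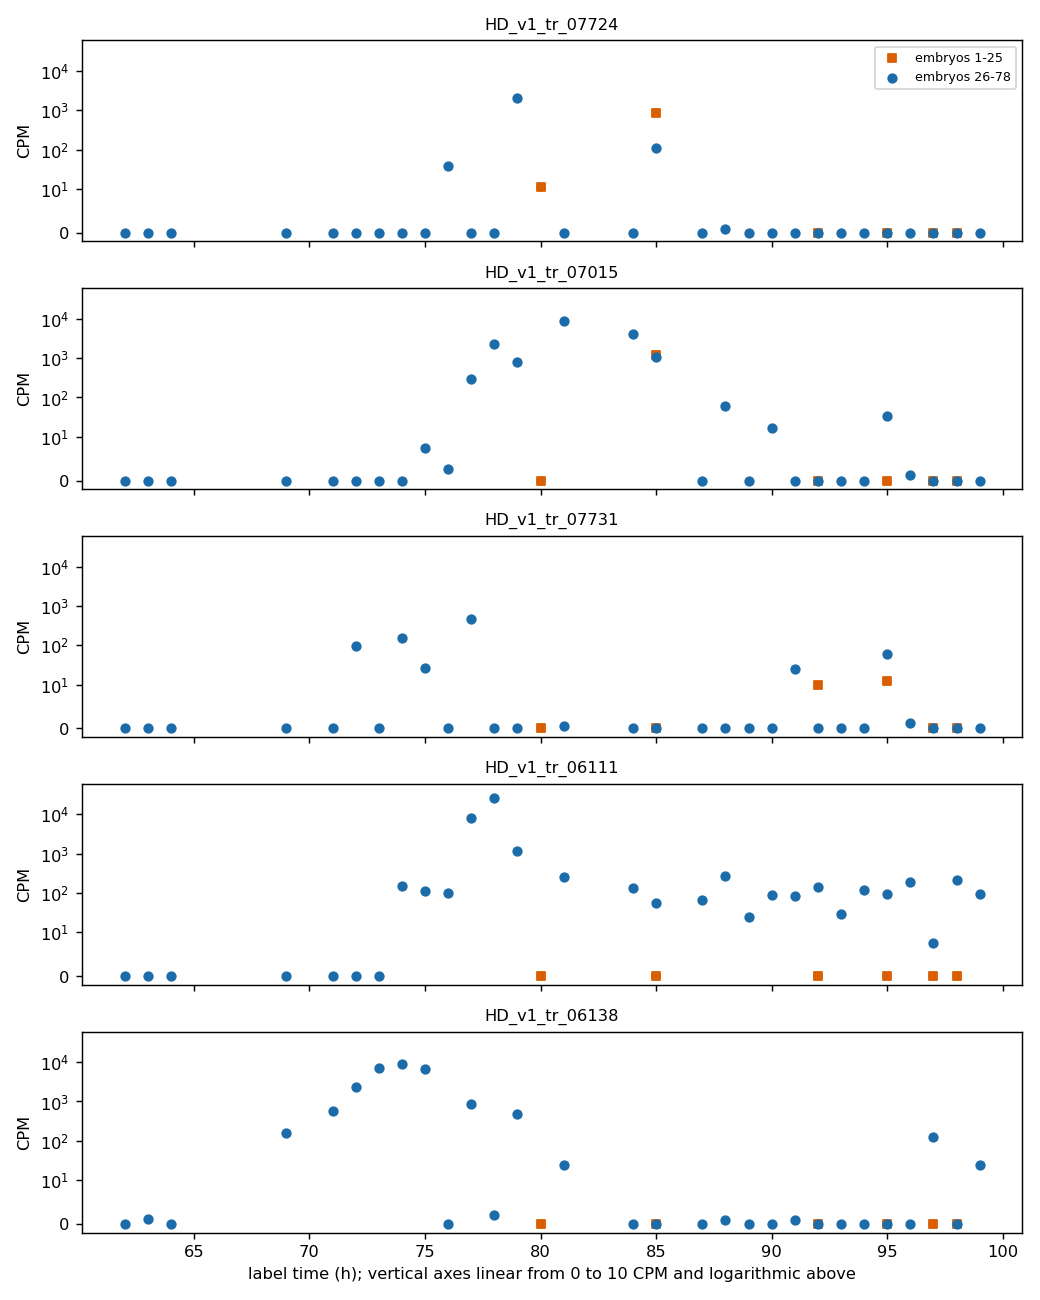
Level in CPM (y axis, linear from 0 to 10 CPM and logarithmic above) against label time (x axis, hours) of the 5 named transcripts, 1 point per kept embryo, with squares for embryos 1-25 and circles for embryos 26-78. HD_v1_tr_06138 is highest at 74 h (9159 CPM), HD_v1_tr_06111 at 78 h (26779.8 CPM) and HD_v1_tr_07015 at 81 h (8716 CPM).

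For HD_v1_tr_07015 and HD_v1_tr_07724, the transcripts with the most similar order of levels over the 22 kept embryos of 80-99 h were looked up among 2667 transcripts with a mean of at least 50 CPM there. The nearest pair for HD_v1_tr_07015 had Spearman's rho of 0.850 and 0.793, and the nearest pair for HD_v1_tr_07724 had 0.697 and 0.629. None of these is a member. The embryos share depth and stretch of numbers, and many values are 0, so these are descriptions only.

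**Figure D5:**
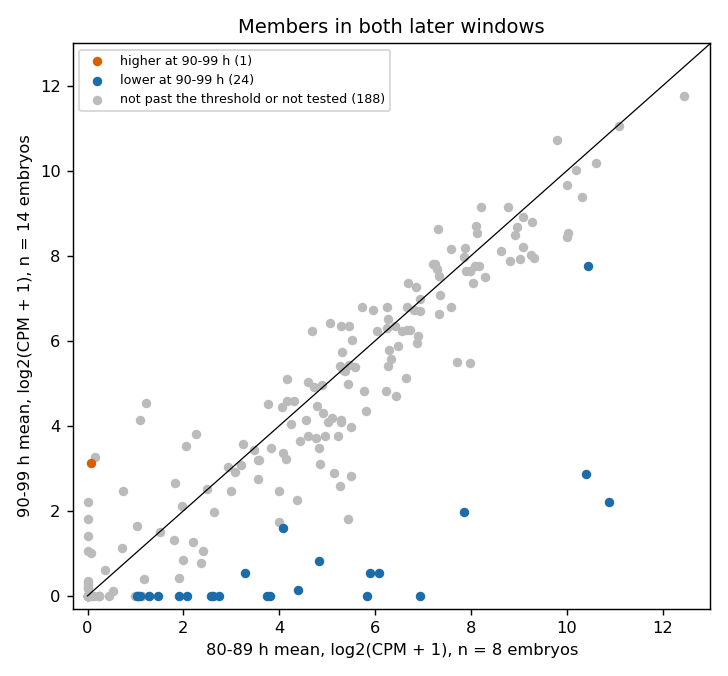
Mean at 90-99 h (y axis, log2(CPM + 1), 14 embryos) against mean at 80-89 h (x axis, log2(CPM + 1), 8 embryos) for the 213 members, with the line of equal levels; colour marks members past an adjusted p of 0.05. The 24 lower members lie below the line, most of them near 0 on the y axis, and the single higher member lies near 0 on the x axis.

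The late embryos come from both stretches of numbers, which allows the later levels to be read separately in each. At 80-99 h, 65 members averaged 50 CPM or more in the 6 kept embryos of 1-25 and 79 in the 16 of 26-78, and 61 of them did so in both. The members' share was 4.18% in embryo 20 and 4.04% in embryo 64, both of 85 h. At 95 h it was 2.33% in embryo 23 and 2.27% in embryo 74, and at 92 h 2.32% in embryo 22 and 2.86% in embryo 71. At 97 h embryo 24 held 2.31% and embryo 76 1.52%, and at 98 h embryo 25 held 1.71% and embryo 77 2.30%. The 85 and 95 h pairs were close, the pairs of 92, 97 and 98 h less so, and neither stretch was higher in every pair.

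Tested over the 22 embryos with a term for the window, 131 members entered the comparison of embryos 1-25 over 26-78. Every 70-79 h embryo is of 26-78, so a transcript seen in that stretch alone could become a member and one seen in embryos 1-25 alone could not, which favours lower values in embryos 1-25. By edgeR, HD_v1_tr_06111 was lower in embryos 1-25 and no other member passed (0.763% of those tested, background 0.109%). Without adjustment 18 members were lower, and DESeq2 called 6 lower (4.58%, background 1.03%). No member was higher (background 0.848%) by edgeR, with 1 higher without adjustment and 1 by DESeq2 (0.763%, background 1.31%). Over all 8253 transcripts tested, 682 were under 0.05 without adjustment by edgeR in either direction. HD_v1_tr_06111 had no count in any of the 6 embryos 1-25, and had counts in all 16 embryos 26-78. Its range there was 7.59 to 276 CPM, with a median of 95.5 CPM. The values do not overlap, but the lowest equals 1 count in embryo 76. A single count in embryo 17 of the other stretch would equal 11.0 CPM, so this separation is narrow. How many of all transcripts are separated in this way was not counted. Against a floor of 3 counts over embryos 1-25, HD_v1_tr_06111 was at least 215.5-fold lower there. The edgeR adjusted p was 8.061e-05, and the transcript passed the threshold in 11 of 11 alternatives. The 3 shallow embryos 1-25 of 82 to 86 h had no count of it either. The stretch and whatever else differed between these embryos cannot be told apart.

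Whether the step differed between the stretches was asked by an interaction. Of 150 members tested, none passed in edgeR in either direction, where the background was 0.0103% higher and 0% lower. Without adjustment 32 were higher and 3 lower, where 1107 of all 9726 transcripts tested were under 0.05 in either direction. DESeq2 called 1 member lower (0.667%, background 0.175%). Embryos 1-25 hold only 2 kept embryos of 80-89 h, 1 of them embryo 17. Within embryos 1-25 the median fitted step over all transcripts was 2.93 and that of the members 2.02 on the log2 scale, so changes there cannot be read as they stand.

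The embryos under the depth minimum took no part in the choice of members. Pooled over embryos, the members held 2567 of 330336 counts (0.777%) in 7 shallow embryos of 80-89 h and 105 of 122389 (0.0858%) in 6 shallow embryos of 60-69 h. Pooled levels were higher at 80-89 h for 86 members and lower for 10, and 117 had no count in either. The 86 are 89.6% of the members with a count, near the 87.5% of all 4834 transcripts with a count, so the split is no result about the members. Of the 62 members that stayed on in the kept embryos, 42 had a pooled level of 50 CPM or more in the shallow embryos of 80-89 h, and of the 129 that did not, 11 had. By embryo, the share was 1.35% to 1.56% in embryos 59, 61 and 62 and 0.0660% to 0.349% in the other 4 of 80-89 h, against 0.0120% to 0.224% at 60-69 h. The ranges overlap. A single transcript outside the members took 38.3% to 64.5% of counts in these 7 embryos.

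No test of single members was possible in the shallow embryos with the usual filter on low counts, which left 31 transcripts and no member. Among these 31 none passed in edgeR (0%), with 4 at an unadjusted p under 0.05 and 2 called by DESeq2. Without the filter, 96 members were tested and none passed the adjusted threshold, with 10 higher and 3 lower without adjustment. Over all 4834 transcripts tested without the filter, 706 were under 0.05 without adjustment in either direction. A difference in single members was not detectable at this depth.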

How the data were processed

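The authors deposited raw counts of reads for each transcript model and embryo, with no normalization. The submitters' processing notes name CASAVA 1.8, Bowtie2 2.1.0 and HTSeq 0.5.4p3. Genome build and annotation were not given in the sources used here. Spike-ins (92) and 5 summary rows stayed out of totals and tests. Reads outside any model took a median of 6.64% per embryo and unaligned reads 47.8%. Reads carry no molecular identifiers, so floors and intervals are for counting error alone.

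The time tag counts minutes after fertilization and the growth protocol hours past the 2-cell stage, so time zero is uncertain. Nothing ties embryos to a mother or clutch, and p-values set a change against the spread between these embryos. Most embryos of a window differ in label hour, so this spread includes change within the window. The stretches of embryo numbers were read from numbers and label times, and no batch is named. No embryos had identical counts.

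Members and lists were chosen with earlier results of these data known. Gene lists could not be applied without gene names. Named were the 2 largest falls and the 2 largest rises among called members, with a mean of 50 CPM or more and counts in at least 50% of embryos in the higher window; no rise met this. Other named members were chosen after their values were seen.

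Tests used edgeR 4.0.16 in R 4.3.3 (TMM factors, default filter, quasi-likelihood F-test, Benjamini-Hochberg adjustment over all transcripts tested, threshold 0.05), tested on simulated data. The step was fitted over 101 kept embryos in 10 windows, the stretch and interaction fits over 22. A standard error is the log2 change divided by the root of F. Alternatives used DESeq2 1.42.0, limma 3.58.1 on log2 CPM (prior count 2), other scalings, filters, thresholds and embryos. Python 3.11.15, numpy 2.4.6, pandas 2.3.3 and matplotlib 3.10.9 did the rest. The planned test of shallow embryos left no member after its filter.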

Additional observations from a re-analysis of the deposited data

Results flagged for a closer look

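In groups of 4 to 10 embryos, 40 sets of values were checked for an embryo far from the others, and 16 had one. Chance gives about 1 in 20 for values that chose nothing, but 8 of the 16 are values up to 79 h that chose the members or the named transcripts, so that rate is no scale for them. The 80-89 h levels of the named transcripts also chose those transcripts, by their step or their later means. Many of these levels are 0, so the rate is no scale for them either. At 60-69 h, embryo 48 (69 h) held 0.517% of counts on the members, where the others held 0.156% to 0.209%, and had 40 members at 50 CPM or more, where the others had 7 to 12. At 80-89 h, embryo 17 had 7 members at 50 CPM or more, where the others had 59 to 95. In embryos 26-78 at 90-99 h, embryo 76 (97 h, 131746 counts) had 33 members with counts, where the others had 90 to 120, and 29 at 50 CPM or more, where the others had 61 to 75. In embryos 1-25 at 90-99 h, embryo 25 held 1.71% on the members, where the others held 2.31% to 2.33%. Embryo 106 at 20-29 h and embryo 119 at 30-39 h each had 1 member at 50 CPM or more, where the others had 0.

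Among the named transcripts at 70-79 h, HD_v1_tr_06111 stood at 26779.8 CPM in embryo 57 (0 to 7869 in the others) and HD_v1_tr_07015 at 2277 CPM in the same embryo (0 to 805). HD_v1_tr_07724 stood at 2014 CPM in embryo 58 (0 to 38.5) and HD_v1_tr_07731 at 457 CPM in embryo 56 (0 to 152). At 80-89 h, embryo 60 held HD_v1_tr_07015 at 8716 CPM (0 to 4027), HD_v1_tr_06138 at 24.3 CPM (0 to 0.820) and HD_v1_tr_07731 at 0.459 CPM (0 in the others), and embryo 20 held HD_v1_tr_07724 at 852 CPM (0 to 108).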

How the results depend on the processing

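The number of members was 213. It ran between 143 and 257 under other depth minimums, thresholds and scalings, apart from 320 with 25 CPM as the limit, of which 144 were shared. Leaving out an embryo of 60-79 h in turn gave 194 to 256, the highest without embryo 48 (69 h). Window medians gave 152 members, 79 of them shared. Without embryos 55 and 58, chosen after seeing the data, 230 members resulted, 180 shared. The 62 members on in both later windows were 41 with embryos 1-25 alone.

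The 24 members lower at 90-99 h were 10 with DESeq2 (4.76%, all transcripts 4.21%) and 8 with limma (3.81%, all 1.50%). They were 7 with no embryo left out for depth (5.19%, all 4.49%) and 6 with linear time (4.35%, all 0.356%). Within embryos 26-78 they were 2 (0.943%, all 0.206%) and within embryos 1-25 also 2 (1.77%, all 1.03%). With embryos of 80-99 h alone it was 1 (0.943%, all 0.101%). Leaving out an embryo of 80-89 h in turn gave 13 to 27 lower (6.28% to 12.9%, all 3.02% to 4.17%), with 13 without embryo 60. It gave 0 to 1 higher (0% to 0.476%, all 2.81% to 4.05%). The single higher member was 2 with RLE factors (0.952%, all 3.48%), 2 with spike-in scaling (0.952%, all 3.09%) and 2 without the filter on low counts (0.939%, all 4.26%). It was 3 with a term for the stretch (1.43%, all 2.75%), 4 with limma (1.90%, all 2.11%) and 4 with no embryo left out for depth (2.96%, all 6.62%). It was 0 with a depth minimum of 20% of the median (all 3.75%) and with embryos of 80-99 h alone (all 0%). Within embryos 26-78 (all 0%) and within embryos 1-25 (all 1.70%) it was 0 too. It was also 0 without embryos with over 10% on a transcript (all 3.75%), with linear time (all 0.134%) and against a 1.5-fold change (all 3.08%). Spike-in scaling moved the median over all transcripts by 0.18 and gave the members -0.23. Between stretches, DESeq2 gave 6 lower (4.58%, all 1.03%) and 1 higher (0.763%, all 1.31%). Leaving out embryos with over 10% on a transcript gave 1 higher (0.730%, all 0.647%). Leaving out embryos in turn gave 1 to 2 lower, with 2 without embryo 22 (1.54%, all 0.236%). DESeq2 gave 1 lower in the interaction (0.667%, all 0.175%). The causes of these shifts were not tested.

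No paired analysis was possible because the labels give the groups no shared replicate numbers. Among kept embryos, depth limits single members most in embryo 81 (1 h, 65417 counts), where a single count equals 15.3 CPM. Embryo 81 is part of the 0-9 h mean that chose the members, and had no count on any member. At 79 and 80 h a single count equals 13.0 CPM in embryo 58 and 11.0 CPM in embryo 17.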

Other observations

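Embryo 55 (76 h) held 24 members with counts and 4 at 50 CPM or more, where the embryos of 75 and 77 h held 170 and 185 with counts and 104 and 154 at 50 CPM or more. Its 752928 counts lie between the 306329 and the 2400687 counts of the 73 and 77 h embryos. Member counts per 100 spike-in counts were 0.317 in it, 19.5 at 75 h and 102.6 at 77 h.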
